A study of Mus musculus with 6 samples.

Results

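Cadherins, claudins and connexins are the gene families that hold neighbouring cells together, seal the space between them and join their cytoplasm. The genes described here are those whose symbol is Cdh, Cldn, Gja, Gjb, Gjc, Gjd or Gje followed by a number, without Cdh5 and Cldn5, the junction genes of vessels. The analysis covered 60 such genes with a probe set assigned to 1 gene, out of 19938 genes tested: 22 cadherins, 22 claudins and 16 connexins. Transcripts were measured in primary mouse bone marrow cells that lacked the leukocyte antigen CD45 and the erythroid antigen Ter119 and carried CD73, an enzyme of the cell surface that makes adenosine. The tissue was dissociated, and cells were sorted by CD105 (endoglin, a co-receptor of TGF-beta family ligands) into CD73+CD105- (n = 3 arrays) and CD73+CD105+ (n = 3 arrays) populations, which went directly into lysis buffer. The labels give no strain, age or treatment, and they leave unsaid whether each biological replicate is an animal of its own, so the p-values describe the spread among these samples only. A difference is the CD73+CD105+ mean less the CD73+CD105- mean of the deposited RMA values, which are log2. It was tested with limma over all 19938 genes, and a gene rose or fell where its Benjamini-Hochberg adjusted p lay under 0.05.

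Cadherins bind the same or a like cadherin on the next cell through their outer repeats, and the classical ones tie to actin through catenins. Claudins form the strands of tight junctions, which in epithelia and endothelia set which ions and solutes pass between cells. Connexins assemble into channels that dock between cells as gap junctions, through which bone-forming and stromal cells of marrow are known to exchange ions and small metabolites.

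The sorted populations differed in CD105 transcript as sorted: Eng was at 6.30 ± 0.21 (SD, n = 3) in the CD73+CD105- arrays and at 8.06 ± 0.25 in the others. Array medians lay between 6.27 and 6.35, and the differences had standard errors with a median of 0.09. The 2 replicate 1 arrays averaged almost exactly to the average of the remaining 4, probe set by probe set (SD of the gap 0.0627, against 0.202 to 0.244 for the 8 other pairs across populations). No label accounts for this, so results are also given with a batch term for replicate 1. The term leaves every difference as it was, because replicate 1 holds an array of each population. Because that gap is so small, the term takes up little variation, and the standard error of Cdh13 went from 0.08 to 0.10. A gene that does not pass with it is therefore not shown to depend on a batch. The fit without the term treats the arrays as independent, which the near-exact averaging of replicate 1 does not bear out. Its adjusted p-values may thus be too small, and genes that pass only without the term are less certain. The markers of endothelium were higher in CD73+CD105+ cells for 8 of 8 genes, with summed linear levels of 411 to 515 in CD73+CD105- and 2802 to 3695 in CD73+CD105+ arrays. The 8 markers of chondrocytes lay lower in CD73+CD105+ cells, 0 past the threshold and 5 at an unadjusted p under 0.05 in limma, with sums of 31858 to 36311 against 25676 to 31516. Of 6 reticular stroma markers 5 rose, with sums of 1653 to 2320 against 3416 to 4150. In such bulk samples fewer cells of a type and less RNA per cell cannot be told apart.

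Among the 60 genes, Cdh13 rose 1.6-fold and Gjc3 fell 1.69-fold, and no claudin passed. Over all genes 1.35% rose and 0.466% fell, or 1.82% in either direction. Members with an unadjusted p under 0.05 numbered 9 of 60 (15%), close to the 17.7% of all genes, and the 3 arrays of one population lay apart from those of the other in 13 members (21.7%), against 23.7% of all genes. The median difference of the 60 genes was -0.04, against -0.02 over all genes, and the median size of the difference regardless of sign was 0.10 and 0.11. Both counts of the members were thus near the background.

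Olfactory and vomeronasal receptor genes, which marrow should not transcribe, gave a floor for comparison: 95 percent of the 1190 such genes had a mean of 6.01 or less, called the receptor gene level below. A mean above it in at least 1 population was found for 24 of the 60 genes, against 13014 of all 19938 genes. The 24 were 6 cadherins, 11 claudins and 7 connexins, and the other 36 members lay below it in both. Of the 8 endothelial markers 5 lay below it in CD73+CD105- and 0 in both populations. Below it in both lay 3 of 5 leukocyte and 3 of 5 skeletal muscle markers. The leukocyte marker Cd3e (6.59 in each population) and the muscle marker Ckm (6.95 in CD73+CD105-, 7.01 in CD73+CD105+) lay above it. A mean somewhat above the level thus does not by itself show that a gene is transcribed. Among the 24 genes above that level, 8 had an unadjusted p under 0.05 (33.3%, against 21.6% of the 13014 genes of all kinds above it). Among the 36 below, 1 did, and 0 of these passed limma's adjusted threshold. All 5 members with a difference of at least 0.5 in size (8.33% of the 60, against 4.08% of all genes), Cdh2, Cdh11, Cdh13, Gjb6 and Gjc3, were among the 24.

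**Figure D1:**
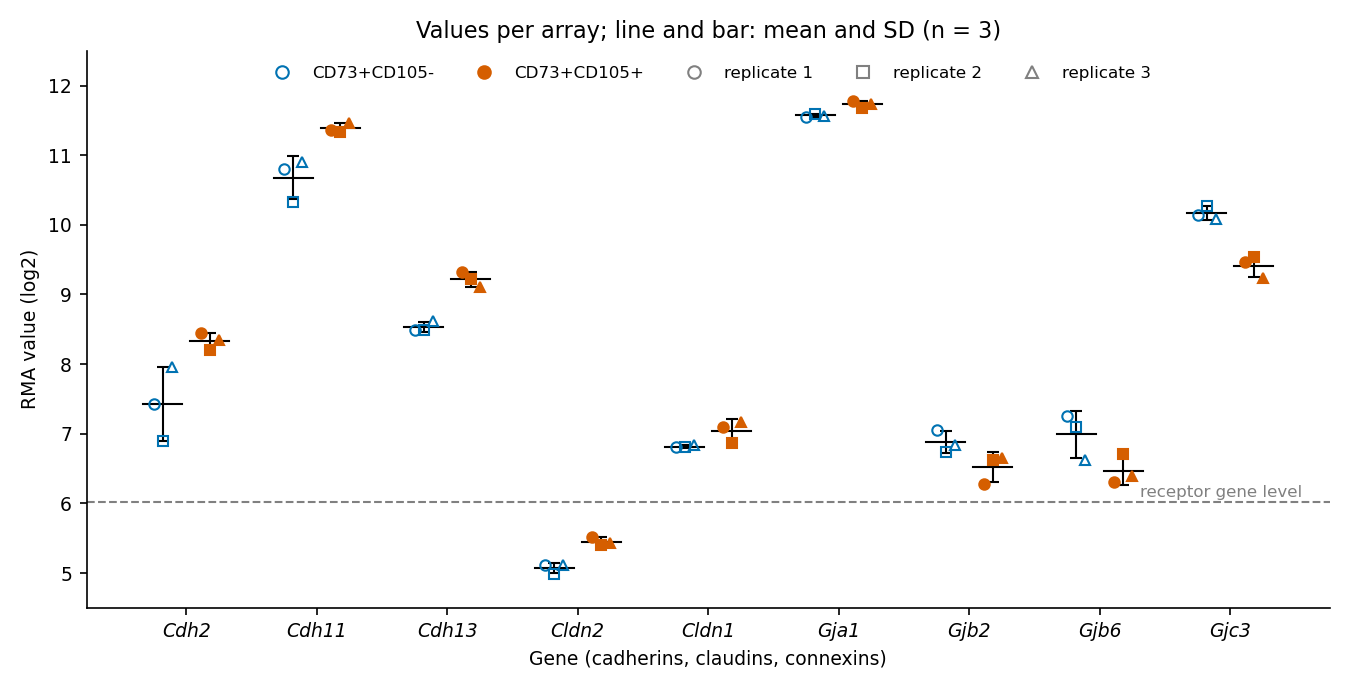
RMA values on the log2 scale (vertical axis) in each of the 6 arrays for the 9 genes of the families with an unadjusted p under 0.05, with open blue symbols for CD73+CD105- and filled orange symbols for CD73+CD105+, the symbol shape for the replicate number, and the mean with its SD in black. The populations overlap for Gjb6 and lie apart for every other gene shown, of which only Cdh13 and Gjc3 passed the adjusted threshold. Cldn2 lies below the receptor gene level of 6.01 (dashed) in every array.

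The 3 genes of this set that the connexin results turn on and whose promoter RefSeq's table holds are Gjc3, which fell, and Gjb2 and Gjb6, neighbours on chromosome 14 that both lay lower. Their promoters are shown because that of Gjb2 differs from those of Gjc3 and Gjb6 in the CpG content that often marks broadly used genes. Each sequence gives, 5′ to 3′, the 300 bases around the RefSeq start (GRCm38.p6), most of them before it, with CpG dinucleotides in capitals. All 3 lie on the minus strand, at chr5:137963049-137963348 for Gjc3, chr14:57104653-57104952 for Gjb2 and chr14:57133562-57133861 for Gjb6.
Gjc3: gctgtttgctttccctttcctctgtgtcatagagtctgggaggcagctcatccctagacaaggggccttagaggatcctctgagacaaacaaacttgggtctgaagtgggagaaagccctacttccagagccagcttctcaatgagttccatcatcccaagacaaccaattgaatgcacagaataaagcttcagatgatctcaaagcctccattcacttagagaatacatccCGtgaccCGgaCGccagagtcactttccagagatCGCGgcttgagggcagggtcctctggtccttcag
Gjb2: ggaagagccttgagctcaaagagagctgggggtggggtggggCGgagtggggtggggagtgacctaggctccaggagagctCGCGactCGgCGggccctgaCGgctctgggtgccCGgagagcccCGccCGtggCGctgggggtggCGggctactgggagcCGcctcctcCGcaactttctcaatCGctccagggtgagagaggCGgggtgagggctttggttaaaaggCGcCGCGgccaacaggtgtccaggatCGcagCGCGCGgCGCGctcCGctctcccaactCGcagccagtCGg
Gjb6: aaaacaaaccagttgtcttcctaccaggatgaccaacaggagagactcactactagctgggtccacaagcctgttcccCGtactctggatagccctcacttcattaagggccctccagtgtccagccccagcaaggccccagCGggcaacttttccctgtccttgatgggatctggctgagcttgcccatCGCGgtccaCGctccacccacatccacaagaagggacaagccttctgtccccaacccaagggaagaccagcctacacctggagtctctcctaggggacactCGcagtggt

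The Gjb2 promoter holds 27 CpG dinucleotides and 70% G and C, the Gjb6 promoter 6 and 57.3%, and the Gjc3 promoter 5 and 50.7%, against a median of 7 CpG dinucleotides over 32841 promoters of the table. Searched on both strands, the GC box GGGCGG was found in Gjb2 alone of the 3 (35.7% of all promoters hold it), and the E-box CACCTG in Gjb2 and Gjb6 (20.2%). The TATA box TATAAA (13.6%) and the SOX core ACAAT (31%) were found in none of the 3. These matches describe the letters of the window only. Of 43 members with a promoter in the table, taking the CpG-richest one per gene, the 18 above the receptor gene level had a median of 12 CpG dinucleotides (3 to 38) and the 25 below it a median of 7 (2 to 41), ranges that overlap almost wholly. Taking the richest favours genes with several promoters, which were more common above that level, so the medians are not compared on equal terms.

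Of the 22 cadherins 1 rose, 0 fell and 21 did not pass. Cdh13, Cdh11 and Cdh2 had the largest differences, all positive, and the rest of the family lay between -0.33 and 0.19. Cdh13 encodes T-cadherin, which sits in the membrane by a lipid anchor, has no catenin-binding tail and is known as a receptor of the hormone adiponectin. Its values were 8.49, 8.50 and 8.62 in CD73+CD105- replicates 1, 2 and 3, and 9.32, 9.22 and 9.11 in CD73+CD105+ replicates 1, 2 and 3. Every CD73+CD105+ array lay above every CD73+CD105- array, with a gap larger than the spread within either population. The difference was 0.68 (SE 0.08, 95% interval 0.49 to 0.87, limma adjusted p = 0.0128). Cdh13 did not pass without CD73+CD105- replicate 1 (limma adjusted p = 0.0642), CD73+CD105- replicate 2 (0.0513) or CD73+CD105+ replicate 1 (0.0613), nor with the batch term for replicate 1 (0.052) or in replicates 2 and 3 alone (0.245), while its difference stayed between 0.60 and 0.74 under every alternative run. T-cadherin is known from endothelium, whose 8 markers had a median difference of 2.92 in the same arrays, and Adipoq, its ligand gene, differed by 1.32; their part in the Cdh13 result was not tested.

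Cdh11 and Cdh2, the cadherins best known from osteoblasts and mesenchymal stroma, had differences as large as that of Cdh13 but more spread. Cdh11, a type II cadherin, stood at 10.80, 10.32 and 10.90 in CD73+CD105- and at 11.36, 11.33 and 11.47 in CD73+CD105+ replicates 1, 2 and 3. The populations did not overlap, and CD73+CD105- replicate 2 lay furthest down. The Cdh11 difference of 0.71 (SE 0.15, 95% interval 0.36 to 1.06) did not pass over all genes (limma adjusted p = 0.0686), though it did with array weights (0.0287). Array weights let many more genes pass in both directions over all genes, as given in the closing section, so passing there sets a gene less apart. Cdh2, N-cadherin, a classical type I cadherin, stood at 7.43, 6.90 and 7.96 in CD73+CD105- and at 8.45, 8.20 and 8.35 in CD73+CD105+ arrays. The populations did not overlap, but the CD73+CD105- arrays spanned more than the difference between the means, 0.90 (SE 0.24, 95% interval 0.34 to 1.47, limma adjusted p = 0.118). Without CD73+CD105- replicate 3, the highest of its population, the Cdh2 difference was 1.17 and passed (limma adjusted p = 0.0406), and with array weights it was 0.99 and passed (0.0319). In the same arrays the 6 reticular stroma markers had a median difference of 1.10. Of 6 pericyte and smooth muscle markers 2 rose, Rgs5 and Tagln, and 0 fell, with a median difference of 0.52, sums of 1442 to 1774 against 1869 to 2506, and Cspg4 at -0.47. Of 5 measured osteoblast markers 0 passed in limma and 1 had an unadjusted p under 0.05 (Sp7, -0.35), with 3 of the 5 lower, a median difference of -0.11 and sums of 10824 to 11546 against 11057 to 12937. The part of these cell types in the Cdh11 and Cdh2 values was not tested.

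Cdh5, the endothelial cadherin left out of the set, differed by 3.34 (SE 0.16, limma adjusted p = 0.000272), which is several times the difference of any of the 22 cadherins. The 3 other cadherins above the receptor gene level did not pass. Cdh4, R-cadherin of the type I class, stood at 6.25 to 6.30 in CD73+CD105- and 6.41 in all 3 CD73+CD105+ arrays (difference 0.13). The type II cadherin genes Cdh24 (-0.09) and Cdh22 (-0.23) had intervals that include 0, from -0.25 to 0.08 and from -0.51 to 0.06. A second probe set of Cdh24 differed by 0.05, with the opposite sign, while second probe sets of Cdh18 (-0.06) and Cldn10 (-0.07) had the same sign as the ones used.

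The 16 cadherins below the receptor gene level in both populations included the epithelial cadherins Cdh1 (5.40 and 5.30, CD73+CD105- and CD73+CD105+ means) and Cdh3 (5.59 and 5.57), and Cdh15 of muscle satellite cells (5.79 and 5.60). Their differences ran from -0.33 for Cdh18 to 0.19 for Cdh6, and 12 of the 16 lay below 0. Cdh18, a neural type II cadherin, was at 5.02 to 5.99 in CD73+CD105- and 4.96 to 5.21 in CD73+CD105+ arrays, which overlap. By class, 0 of 5 type I, 0 of 12 type II and 1 of the 5 other cadherins (Cdh13) passed in limma, with 1 of each at an unadjusted p under 0.05.

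**Figure D2:**
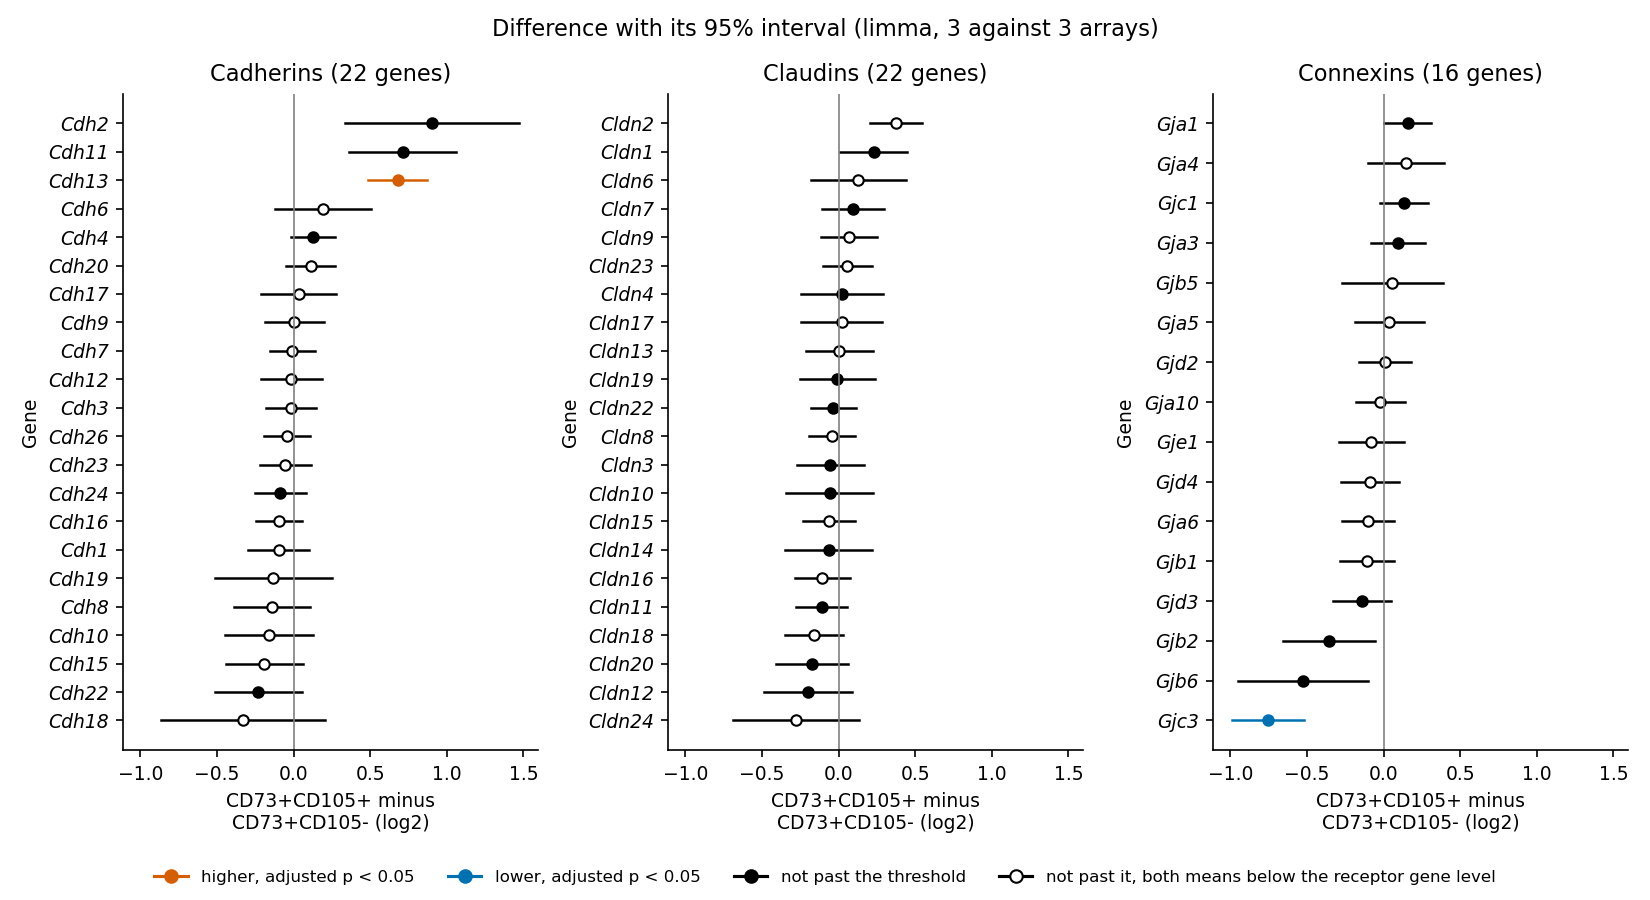
Difference of each of the 60 genes on the log2 scale (horizontal axis) with its 95% interval from limma, genes ordered by difference within each family. Cdh13 (0.68, orange) and Gjc3 (-0.75, blue) passed the threshold, filled points have a mean above the receptor gene level in at least 1 population, and most open points lie close to 0.

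Of the 22 claudins 0 rose, 0 fell and 22 did not pass, with 2 at an unadjusted p under 0.05 in limma and differences from -0.28 (Cldn24) to 0.38 (Cldn2). The family's median difference was -0.04. Cldn2, which forms pores for cations in leaky epithelia, came nearest: it stood at 5.12, 4.99 and 5.11 in CD73+CD105- and at 5.52, 5.40 and 5.43 in CD73+CD105+ replicates 1, 2 and 3. The arrays of the populations did not overlap, and all 6 values lay below the receptor gene level of 6.01, where RMA compresses differences. The difference was 0.38 (SE 0.07, 95% interval 0.21 to 0.55, limma adjusted p = 0.053), and it passed with array weights (0.0209) and with a variance trend and robust prior (0.0479).

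Cldn1, a barrier claudin of skin and other epithelia, had the largest positive difference among claudins above the receptor gene level. It stood at 6.80, 6.80 and 6.84 in CD73+CD105- and at 7.10, 6.86 and 7.17 in CD73+CD105+ arrays, with CD73+CD105+ replicate 2 close to the CD73+CD105- values (difference 0.23, 95% interval 0.01 to 0.45, limma adjusted p = 0.261). Cldn12, a claudin without the usual scaffold-binding tail, overlapped between populations at 9.01 to 9.39 in CD73+CD105- and 8.92 to 9.20 in CD73+CD105+ arrays (difference -0.20, interval -0.48 to 0.09). Cldn20 (-0.17) and Cldn11 (-0.11), the latter a claudin of myelin and Sertoli cells, also had intervals that include 0. The populations did not overlap for Cldn11, at 6.58 to 6.71 against 6.46 to 6.54.

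The epithelial claudin genes Cldn3 (-0.05), Cldn4 (0.02) and Cldn7 (0.09), the ion-pore claudin Cldn10 (-0.06), Cldn14 of the inner ear (-0.06), Cldn19 of Schwann cells and kidney (-0.01) and Cldn22 (-0.03) lay above the receptor gene level with differences under 0.1 in size. For Cldn3, Cldn4, Cldn10, Cldn14 and Cldn19 the sign changed under at least 1 alternative. The interval of Cldn22, the narrowest of the family, ran from -0.18 to 0.11. Cldn24, its neighbour on chromosome 8, was at 3.94 to 4.39 in CD73+CD105- and 3.50 to 4.02 in CD73+CD105+ arrays, below the receptor gene level throughout, and cross-hybridisation between these related genes was not tested. Cldn5, the endothelial claudin outside the set, stood at 6.26 ± 0.14 and 6.57 ± 0.07 (SD, n = 3) and differed by 0.31 (SE 0.09, limma adjusted p = 0.144). Epithelial markers gave 0 of 6 past the threshold and 1 at an unadjusted p under 0.05 in limma, with sums of 418 to 475 in CD73+CD105- and 423 to 446 in CD73+CD105+ arrays, and 3 of the 6, Epcam among them, lay below the receptor gene level in both populations. Krt8 (7.28 in each) and Krt14 (6.27 and 6.24) lay above it in both, and Krt5 in CD73+CD105- only (6.32 and 5.94).

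Of the 16 connexins 0 rose, 1 fell and 15 did not pass. Gjc3, a connexin known from myelinating glia and the cochlea, fell. It stood at 10.14, 10.27 and 10.09 in CD73+CD105- and at 9.46, 9.54 and 9.24 in CD73+CD105+ replicates 1, 2 and 3. All CD73+CD105+ values lay below all CD73+CD105- values, far above the receptor gene level in both. The difference was -0.75 (SE 0.10, 95% interval -0.99 to -0.52, limma adjusted p = 0.0176). Gjc3 did not pass without CD73+CD105- replicate 1 (limma adjusted p = 0.0714), CD73+CD105- replicate 2 (0.0609) or CD73+CD105+ replicate 1 (0.0646), nor with the batch term for replicate 1 (0.0602) or in replicates 2 and 3 alone (0.251), while its difference stayed between -0.82 and -0.67 under every alternative run.

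Of 5 measured Schwann and glia markers 0 passed in limma and 1 had an unadjusted p under 0.05, with sums of 382 to 411 in CD73+CD105- and 369 to 408 in CD73+CD105+ arrays, which overlap. Sox10, the defining factor of that lineage, was at 6.88 to 6.95 and 6.78 to 6.89. The chondrocyte markers, 8 of 8 lower, had a median difference of -0.29, and their part in the Gjc3 result was not tested.

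Gjb2 and Gjb6, which encode the connexins that partner in the cochlea and whose promoters are printed above, both lay lower in CD73+CD105+ cells without passing. Gjb6 stood at 7.26, 7.10 and 6.62 in CD73+CD105- and at 6.31, 6.70 and 6.39 in CD73+CD105+ arrays. CD73+CD105- replicate 3 lay under CD73+CD105+ replicate 2, so the populations overlapped. The Gjb6 difference was -0.53 (SE 0.18, 95% interval -0.95 to -0.10, limma adjusted p = 0.198), and it passed with array weights alone (-0.70, 0.0454). Gjb2 stood at 7.05, 6.74 and 6.84 in CD73+CD105- and at 6.28, 6.63 and 6.66 in CD73+CD105+ arrays, and its populations did not overlap. Its difference was -0.36 (SE 0.13, 95% interval -0.66 to -0.05, limma adjusted p = 0.216). Between the 2 replicate 1 arrays the difference was -0.95 for Gjb6 and -0.77 for Gjb2, and in replicates 2 and 3 alone it was -0.31 and -0.15. Replicate numbers were not taken as pairs, and over all genes the replicate 1 arrays deviated from their population means in opposite directions (correlation -0.88). Gja3, the lens connexin next to Gjb2 on the same chromosome, differed by 0.09 (interval -0.08 to 0.27). Among 13 pairs of members that neighbour each other in RefSeq's order of protein-coding genes, the differences had the same sign in 7.

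Gja1, the main connexin of osteoblasts and marrow stroma, differed little. It stood at 11.56, 11.60 and 11.56 in CD73+CD105- and at 11.78, 11.68 and 11.73 in CD73+CD105+ replicates 1, 2 and 3. The populations did not overlap, with a narrow gap between them. The difference of 0.16 (SE 0.06, limma adjusted p = 0.266) had a 95% interval of 0.01 to 0.31, so a fold of more than 1.24 lay outside it. Gjc1, which smooth muscle and the early heart use, was at 7.91 to 7.95 and 7.99 to 8.11 (difference 0.13, interval -0.02 to 0.29), again without overlap. Gjd3 was at 7.84 to 8.01 and 7.69 to 7.86 (difference -0.14, interval -0.33 to 0.05).

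The connexins of arterial endothelium did not pass. Gja4 had means of 5.72 and 5.87 in the CD73+CD105- and the CD73+CD105+ population, and Gja5 of 5.47 and 5.51, all below the receptor gene level. Their differences of 0.15 (95% interval -0.10 to 0.40) and 0.04 (-0.18 to 0.26) stood beside a median of 2.92 for the 8 endothelial markers. Gjb1, a connexin of liver and Schwann cells, differed by -0.11 from a mean of 5.66. The 9 connexins below the receptor gene level ran from -0.11 to 0.15.

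The other junction genes, from 6 lists chosen with earlier results of these data known, held 61 measured genes, of which 5 rose and 1 fell, against 1.35% and 0.466% of all genes. Of 10 catenins and cadherin partners 0 passed, and 0 had an unadjusted p under 0.05 in limma. Beta-catenin, Ctnnb1, which joins classical cadherins to the actin linker, stood at 10.68 ± 0.02 and 10.72 ± 0.12 (SD, n = 3; difference 0.04), and Ctnnd1, which steadies cadherins at the membrane, at 9.18 ± 0.05 and 9.26 ± 0.03 (difference 0.08). The 2 largest differences of that list were those of Vcl, an actin linker (0.17), and Ctnna2, the neural alpha-catenin (0.15), neither of which passed. Ctnna2 lay below the receptor gene level in both populations and changed sign with array weights.

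Of 15 tight junction scaffolds and other membrane proteins 0 passed, with 6 at an unadjusted p under 0.05 in limma. The scaffold genes Patj (-0.45, adjusted p = 0.097) and Magi1 (0.44, adjusted p = 0.0859) differed in opposite directions, and both passed with array weights (0.0334 and 0.0248). Of 12 junctional adhesion molecules and nectins 3 rose and 0 fell. F11r, which encodes JAM-A of endothelium and epithelium, stood at 5.47, 5.54 and 5.60 in CD73+CD105- and at 7.39, 7.28 and 7.00 in CD73+CD105+ arrays (difference 1.69, SE 0.11, limma adjusted p = 0.000779). Its CD73+CD105- values lay below the receptor gene level, as did those of Esam (means 5.62 and 6.36), so the size of either difference is set against values at background. Jam2 differed by 0.85 (adjusted p = 0.0229) and Esam, an adhesion molecule of endothelium and platelets, by 0.74 (adjusted p = 0.00508). These 3 are known from vessels, and the endothelial marker sums given above moved with them; that part was not tested. With the batch term for replicate 1, F11r and Esam passed and Jam2 did not (limma adjusted p = 0.0711).

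Of 10 desmosome genes 1 fell, Perp, a tetraspan protein of desmosomes that also responds to p53, from 7.16 ± 0.09 to 6.63 ± 0.02 (SD, n = 3; difference -0.53, SE 0.07, limma adjusted p = 0.0191). Dsc2, a desmosomal cadherin, had a difference of -0.31 (limma adjusted p = 0.0956). Perp did not pass without 5 of the 6 arrays taken singly: every one but CD73+CD105- replicate 3 (limma adjusted p 0.0506 to 0.0942), nor with the batch term for replicate 1 (0.0786). Of 3 pannexins, channel proteins of connexin-like build, 0 passed in limma and 0 had an unadjusted p under 0.05. Panx3, the pannexin of cartilage and bone, was at 11.42 to 11.77 in CD73+CD105- and 10.69 to 11.71 in CD73+CD105+ arrays, with CD73+CD105+ replicate 3 lowest (difference -0.34, 95% interval -0.91 to 0.23), and Panx1 differed by 0.15.

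Of 11 protocadherins, cadherin relatives that bind weakly and signal, 2 rose and 0 fell. Pcdh7 rose from 6.57 ± 0.10 to 7.23 ± 0.14 and Pcdh18 from 8.01 ± 0.10 to 8.64 ± 0.14 (SD, n = 3 each), differences of 0.66 and 0.63 (limma adjusted p = 0.0226 and 0.0271). Neither passed with the batch term for replicate 1 (0.0786 and 0.0873) or without CD73+CD105- replicate 1, CD73+CD105- replicate 2, CD73+CD105+ replicate 1 or CD73+CD105+ replicate 3 (Pcdh7 0.0746 to 0.104, Pcdh18 0.0886 to 0.115). Jam2 likewise did not pass without CD73+CD105- replicate 1, CD73+CD105- replicate 2, CD73+CD105+ replicate 1 or CD73+CD105+ replicate 2 (0.0565 to 0.0895).

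**Figure D3:**
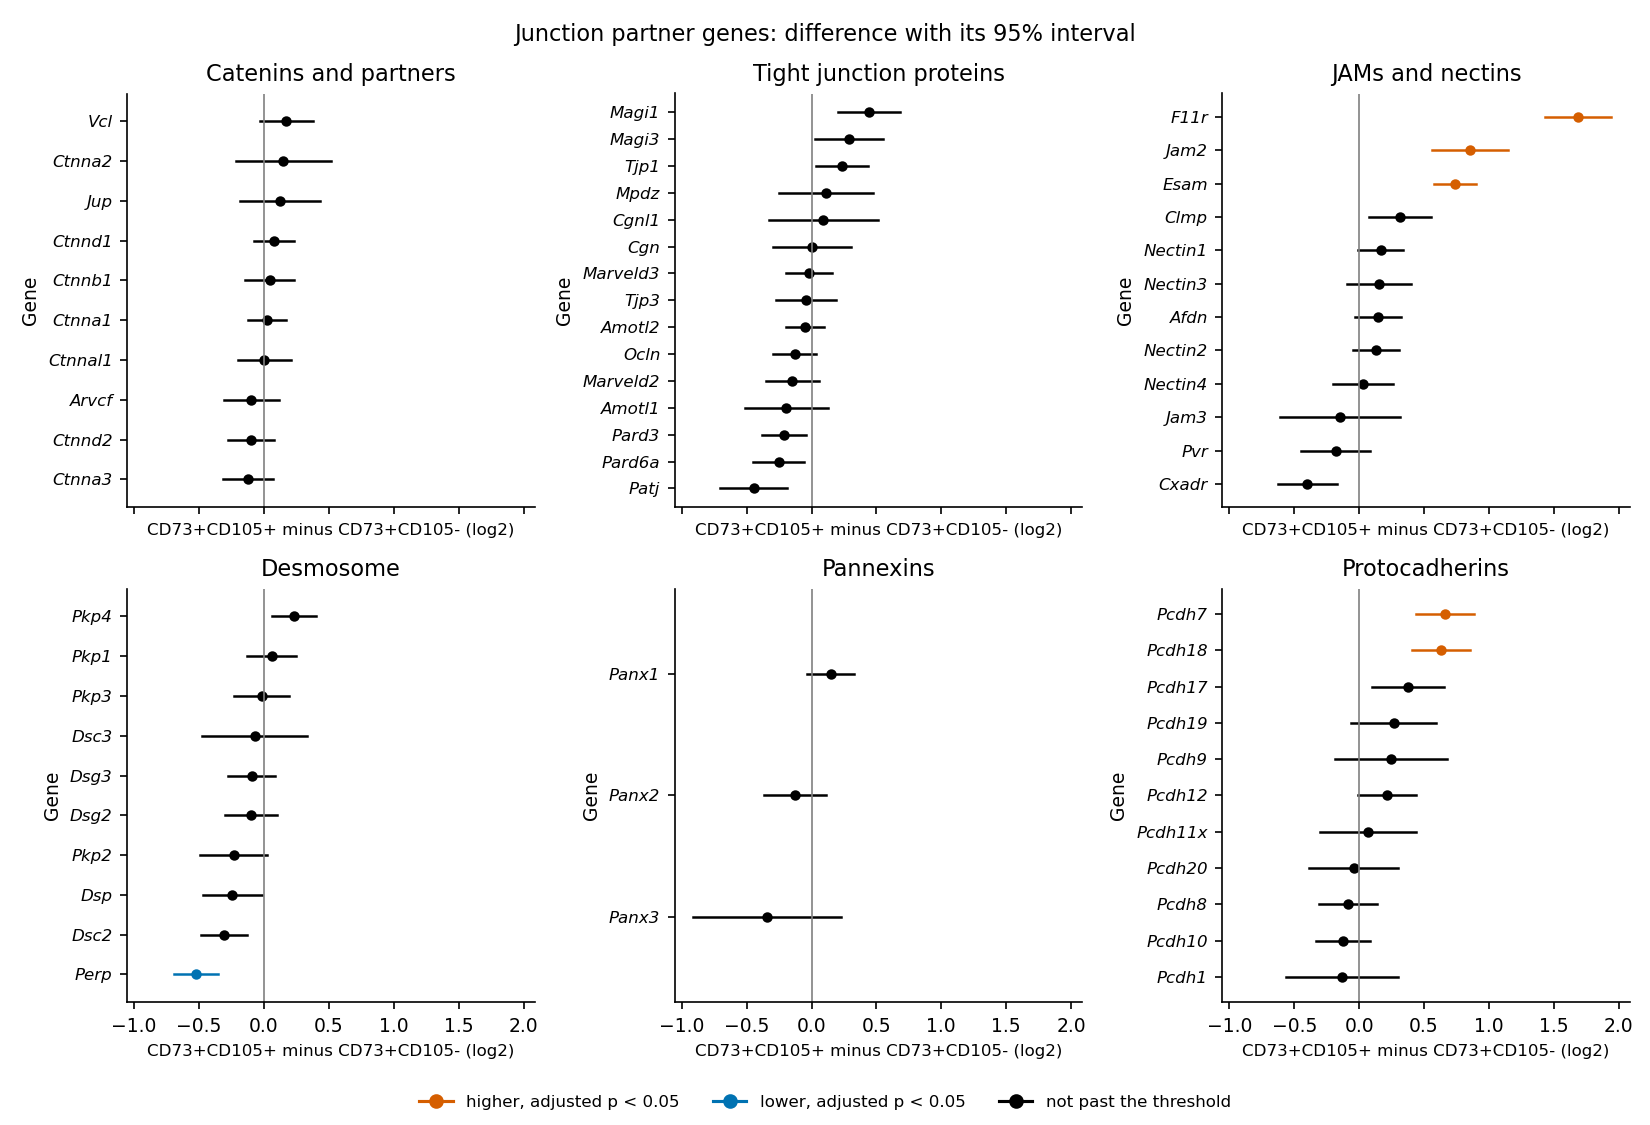
Difference of each of 61 junction partner genes on the log2 scale (horizontal axis) with its 95% interval from limma, in 6 lists. F11r (1.69), Jam2 (0.85), Esam (0.74), Pcdh7 (0.66) and Pcdh18 (0.63) rose (orange), Perp (-0.53) fell (blue), and the catenins lie close to 0.

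**Figure D4:**
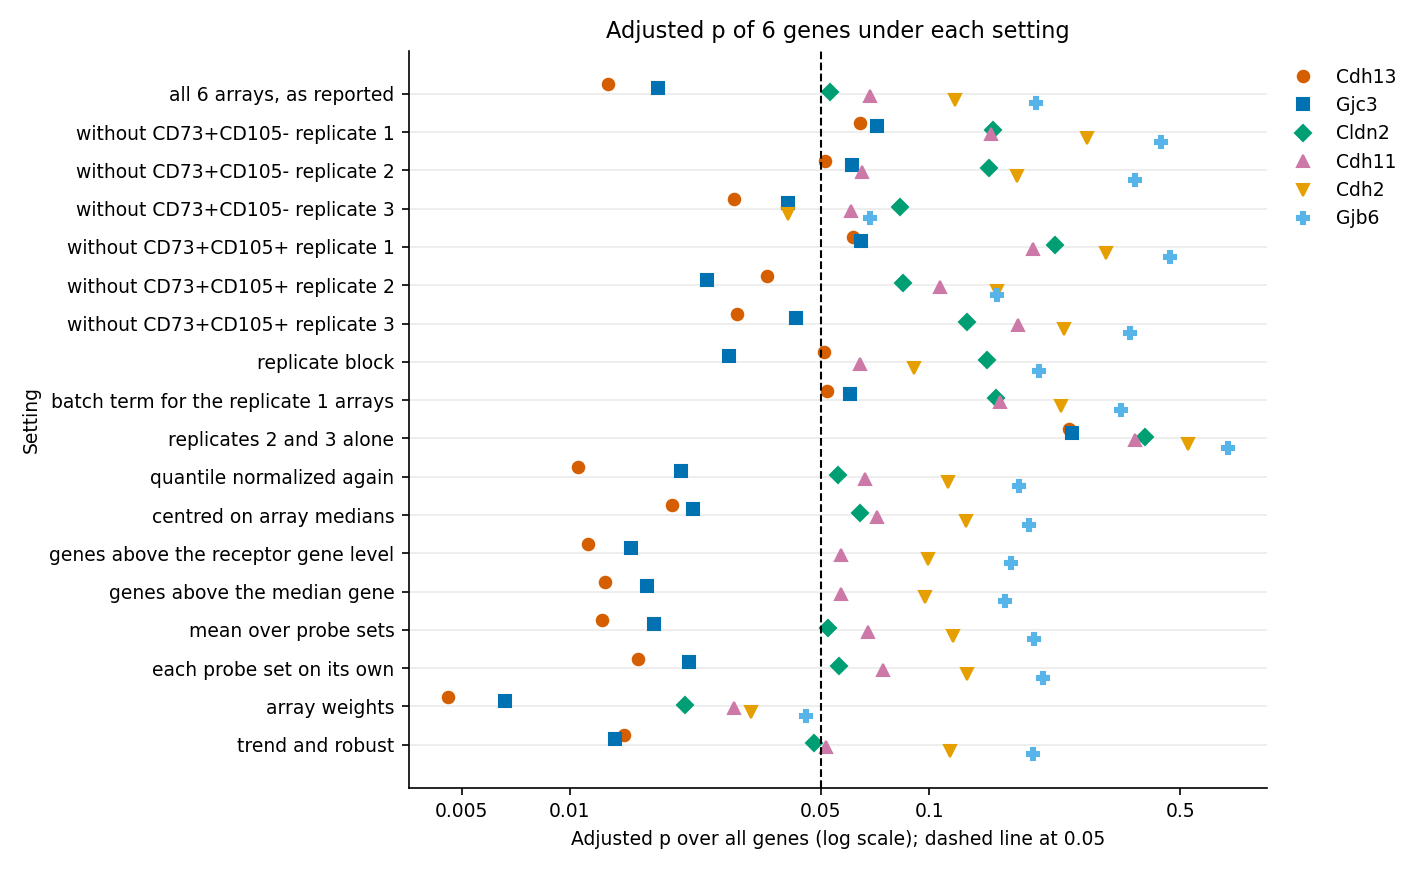
Adjusted p over all genes tested (horizontal axis, log scale) of 6 genes under the reported setting and each of 17 alternatives (vertical axis), with the threshold of 0.05 dashed. Cdh13 and Gjc3 lie left of the line in 11 and 12 of the 17 alternatives, and Cldn2 (tested under 15 of them), Cdh11, Cdh2 and Gjb6 cross it in at most 2.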

How the data were processed

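The authors deposited log2 values, 1 for each probe set and array, made with RMA per the submitters' processing notes; RMA corrects background, quantile normalizes and summarises probes. The array annotation build is not given in the sources used here, and the version of RMA is not given either. Scanner files were not used here. RMA compresses differences of dim genes.

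The platform annotation gave 1 symbol to 21789 of 35556 probe sets, several to 1621 and none to 12146. Per gene the probe set with the highest mean over the 6 arrays was taken, which gave 19938 genes. The 60 members all matched RefSeq's table by Entrez ID, and 4 probe sets that name a member beside other genes were left out. limma 3.58.1 (lmFit, eBayes, two-sided, no block) in R 4.3.3 tested all genes, after tests on simulated data. Intervals are unadjusted. Members and lists were chosen with earlier results of these data known. Named were members past the threshold or above the receptor gene level, the 2 largest differences among the rest of each family, and up to 4 genes from each partner list; Cdh1, Cdh3, Cdh6, Gja5, Ctnnb1, Ctnnd1 and the markers named singly were added after their values were seen. Marker sums add 2 to the power of each log2 value. The number of arrays limits the precision.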

Additional observations from a re-analysis of the deposited data

How the results depend on the processing

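Over all genes 270 rose and 93 fell; leaving out 1 array gave 80 to 240 and 6 to 53. Among members, where 1 rose and 1 fell, it gave 0 to 2 and 0 to 1, and among junction partners, where 5 rose and 1 fell, 2 to 5 and 0 to 1. The batch term for replicate 1 gave 95 and 6 over all genes, 0 and 0 among members, and 2 and 0 among partners. Replicates 2 and 3 alone gave 28 and 1, then 0 and 0, then 1 and 0. Array weights gave 807 and 524 over all genes, 4 and 2 among members, and 3 lower partners. A variance trend with a robust prior gave 2 higher members, and testing only genes above the median gene left 3 higher partners. Deviations from the population means were hardly correlated between arrays of the same number in replicates 2 and 3 (0.01 and 0.10). In replicate 1 they ran strongly opposite (-0.88), which is the same feature as the near-exact averaging of these arrays described above. The replicate 1 arrays were thus related in a way that no label accounts for, and replicate numbers were not taken as pairs. Under the replicate block, 190 genes rose and 25 fell, 0 members rose (Cdh13 adjusted p = 0.051 in limma) and 1 fell (Gjc3, 0.0277), and 3 partners rose and 0 fell.

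Of 487 values of 30 named members under 17 alternatives, 454 kept their direction and side of the threshold, 11 fell short of it, 6 newly passed and 16 changed sign, all 16 in claudins that did not pass. All 11 that fell short belonged to Cdh13 and Gjc3, the only members that could, which passed under 11 and 12 of the 17 alternatives. Leaving out 1 array, Cldn3 ran from -0.116 to 0.0108, Cldn4 from -0.0645 to 0.116, Cldn10 from -0.183 to 0.0476, Cldn14 from -0.171 to 0.0598 and Cldn19 from -0.0903 to 0.0527. In replicates 2 and 3 alone Cldn19 was at 0.10, Cldn3 at 0.065 and Cldn10 at 0.00184. Cldn19 was at 0.00422 with centred medians, and with array weights Cldn4 was at -0.0785 and Ctnna2 at -0.0368. The causes were not tested.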
